A study of Potamopyrgus antipodarum with 6 samples.

Results

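The 242 windows described here are stretches of 100 bp in which the DNA of River 1 snails gave at least 2 times the methylated DNA signal of Lake 2 snails. River 1 is the main channel of the Snake River and Lake 2 is Lake Washington. The snail is Potamopyrgus antipodarum, the New Zealand mudsnail, whose populations at these sites reproduce asexually. Foot tissue DNA was analysed in 3 pools from River 1 and 3 pools from Lake 2, with 10 snails per pool according to the sample labels. Snails of both sites were field collected, received no treatment, and were held for several days under shared laboratory conditions, so each pool is a mixture of field animals and each habitat is represented by 1 site.

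In DNA methylation, a methyl group is attached to cytosine, in animals mostly where a guanine follows. In molluscs and many other invertebrates methylation is concentrated in the bodies of genes, in contrast to the nearly genome-wide methylation of vertebrates. MeDIP-seq shears the DNA, captures the methylated fragments with an antibody that binds methylated cytosine, and sequences what was captured. More reads over a region mean more methylated fragments in the pool. Uncaptured input DNA was not analysed here, so more copies of a sequence and more methylation of it cannot be told apart. Within a pool, more methylated snails or cells and more methylation per cell cannot be told apart either. The reads were placed on a snail transcriptome, joined into 1 long sequence from its contigs, so the windows lie within transcribed sequences, and positions below are positions in that joined sequence. Contig numbers and gene names are given where a region of the study's annotation covers the window. The base sequence of the windows was not used here.

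Values are raw window counts and CPM, which are the counts of a pool scaled so that its windows sum to 1000000. The window counts summed to between 3317802 and 4398017 in the River 1 pools and to between 3838302 and 4994212 in the Lake 2 pools. River 1 pools are called 7, 8 and 9 and Lake 2 pools 4, 5 and 6, after the headings of the deposited table. The titles of the River 1 samples carry other numbers, so the number of a River 1 pool is a name and its site is what the labels give. The windows were chosen on measured values. A window was kept if its summed raw count over the 6 pools was at least 60, its mean count was under 150, each River 1 pool had a higher CPM than each Lake 2 pool, and the mean CPM of River 1 was at least 2 times that of Lake 2. All values that enter this rule are therefore given as a description, and no test is attached to them.

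Of 739509 windows, 66195 met the count limits. In 5662 of these, or 8.55%, each River 1 pool lay above each Lake 2 pool, and 242 of the 5662 also reached the ratio of 2. The separation of the sites in all 242 was required by the rule, so nothing is read from it against the 8.55%. With the sites exchanged, 1579 windows met the same rule, which is 2.39% of the windows within the count limits, against 0.366% that were higher in River 1. Over all windows within the count limits the median ratio of River 1 to Lake 2 was 0.945.

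The signal in the 242 windows was low in both sites. The mean CPM of a window had a median of 4.39 in River 1 (range 3.28 to 22.9) and of 1.91 in Lake 2 (range 0.983 to 10.5). The summed raw count had a median of 76.5 over the 6 pools, and 94 of the 242 windows had fewer than 72 counts. The mean raw count per pool had a median of 12.75, against 22.8 for all windows within the count limits. A ratio of 2 at this level therefore rests on a small number of reads. Without molecular identifiers, reads are not independent molecules. The intervals below are for counts pooled over the pools of a site and cover counting error only. They allow neither for the spread among pools nor for the choice of the windows on these same counts.

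The pools of a site did not contribute equally. The median CPM over the 242 windows was 4.06, 4.52 and 5.00 in pools 7, 8 and 9 of River 1, against 2.00, 2.17 and 1.56 in pools 4, 5 and 6 of Lake 2. Summed over the windows, the CPM was 1092, 1377 and 1425 in River 1 and 585, 614 and 458 in Lake 2, or 1298 ± 180 against 552 ± 82.7 (SD, n = 3 each). Pool 9 was the highest pool in 118 windows and pool 8 in 98, while pool 7 was the highest in 26. Pool 7 was the lowest River 1 pool in 143 windows, and pool 6 was the lowest of the Lake 2 pools in 141. Over all 66195 windows within the count limits, pool 8 was the highest of the 6 pools in 11963, pool 9 in 11630 and pool 7 in 6859. Pool 7 was thus the River 1 pool least often highest there as well. The lowest of the 6 was pool 8 in 23386 of them and pool 7 in 6383. Among Lake 2 pools it was pool 6 in 11161, pool 4 in 10039 and pool 5 in 5597. In 41 windows the highest River 1 pool had at least 2 times the CPM of the lowest, and pool 9 led 21 of them, pool 8 led 19 and pool 7 led 1.

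**Figure D1:**
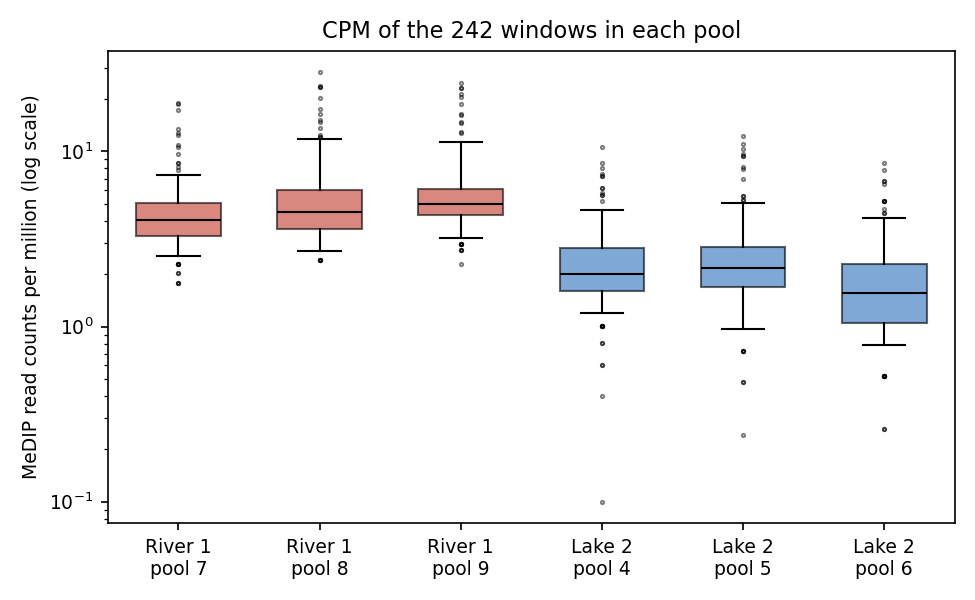
CPM of the 242 windows in each of the 6 pools, on a log scale, with the River 1 pools in red and the Lake 2 pools in blue. Boxes span the quartiles with the median as a line, whiskers reach the percentiles 5 and 95, points lie outside the whiskers, and the only value of 0 is drawn at 0.1. The medians of the River 1 pools lie between 4.06 and 5.00 CPM, and those of the Lake 2 pools between 1.56 and 2.17 CPM.

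Most of the 242 windows lay close to the limit of the rule. The ratio of the site means had a median of 2.22, with quartiles of 2.09 and 2.49, and 184 windows had a ratio under 2.5. Ratios of at least 3 were reached in 24 windows and ratios of at least 4 in 8. The gap between the sites, taken as the lowest River 1 pool over the highest Lake 2 pool, had a median of 1.37 (range 1.00 to 4.85). It was at least 1.5 in 82 windows and at least 2 in 13.

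The windows nearest to the ratio of 2 show how little separated the kept from the dropped. Just inside the limit, the window at 19636701 had 12, 19 and 18 counts in River 1 and 13, 4 and 11 in Lake 2. The window at 1788501 had 22, 9 and 24 counts in River 1 and 12, 11 and 7 in Lake 2, and the window at 5322001 had 17, 9 and 13 in River 1 and 10, 7 and 5 in Lake 2. Just outside, the window at 31179401 had 15, 16 and 23 counts in River 1 and 17, 6 and 8 in Lake 2. The window at 25077801 had 26, 41 and 45 counts in River 1 and 23, 21 and 19 in Lake 2. The window at 26044301 had 24, 29 and 40 counts in River 1 and 29, 16 and 9 in Lake 2. A few counts in 1 pool would move any of these windows across the limit.

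The window with the widest gap lay on contig 51159, at 73086501 to 73086600. It had 50, 40 and 50 counts in pools 7, 8 and 9 of River 1, against 5, 4 and 9 counts in pools 4, 5 and 6 of Lake 2. The mean was 12.0 ± 0.665 CPM in River 1 and 1.44 ± 0.787 CPM in Lake 2 (SD, n = 3 each), a ratio of 8.38. This was the highest ratio of all 242 windows. Pooled over the pools of each site, the 140 counts of River 1 and the 18 counts of Lake 2 gave a ratio of 8.67. Its 95% Clopper-Pearson interval was 5.29 to 15.0, which does not allow for the choice of this window as the most extreme. The annotation gives no gene name for it.

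Other windows had wide gaps at lower counts. On contig 00449, the window at 1005401 had 4.06, 5.73 and 4.55 CPM in River 1 and 1.20, 1.20 and 0.782 CPM in Lake 2, a ratio of 4.50. On contig 51469, the window at 73476401 had 4.32, 6.63 and 5.23 CPM in River 1 and 1.80, 0.964 and 0.782 CPM in Lake 2, a ratio of 4.56. In both, the 3 pools of Lake 2 together held few reads, 14 counts on contig 00449 and 16 counts on contig 51469. On contig 19590, the window at 31792801 had 16, 15 and 21 counts in River 1 and 2, 7 and 4 counts in Lake 2, a ratio of 4.27. The window touching it, at 31792701, had 15, 19 and 19 counts in River 1 and 0, 9 and 3 counts in Lake 2, and it was the only one of the 242 with a count of 0 in any pool. A count of 0 in pool 4 allows up to 3 counts.

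Of the remaining windows with wide gaps, 2 had even pools in both sites. On contig 40247, the window at 58499001 had 5.08, 5.12 and 5.68 CPM in River 1 and 1.80, 1.93 and 2.08 CPM in Lake 2, a ratio of 2.73. On contig 18627, the window at 30340501 had 3.81, 3.62 and 3.87 CPM in River 1 and 1.60, 1.69 and 1.30 CPM in Lake 2, a ratio of 2.46. A wide gap here went with a ratio not far above 2. The Lake 2 pools of the other windows were less even. On contig 10931, the window at 19047501 had 5.84, 4.52 and 4.55 CPM in River 1 and 2.00, 0.723 and 1.56 CPM in Lake 2, a ratio of 3.48. On contig 00763, the window at 1662401 had 4.32, 4.82 and 6.37 CPM in River 1 and 1.00, 1.93 and 1.56 CPM in Lake 2, a ratio of 3.45. None of these 8 windows with the widest gaps has a gene name in the annotation.

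The windows with the most reads are those with the smallest counting error. Only 11 of the 242 had a mean count of at least 30 per pool, and the highest single count was 108. The highest mean count was on contig 14218, at 23965801, with 68, 94 and 101 counts in River 1 and 53, 51 and 33 counts in Lake 2. Its CPM was 22.9 ± 5.53 in River 1 and 10.5 ± 1.85 in Lake 2 (SD, n = 3 each), a ratio of 2.18 with a counting interval of 1.73 to 2.65 for the pooled counts. The interval thus reached below the ratio of 2 that the window had to pass.

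On contig 50569, the window at 72325901 had 74, 58 and 108 counts in River 1 and 40, 43 and 20 counts in Lake 2, a ratio of 2.58. On contig 20618, the window at 33299701 had 73, 77 and 71 counts in River 1 and 37, 39 and 26 counts in Lake 2, a ratio of 2.46 (counting interval 1.90 to 3.08). The lowest River 1 pool was 1.69 times the highest Lake 2 pool on contig 50569 and 1.72 times on contig 20618, so the sites were well apart in both. On contig 15561, the window at 25942601 had 38, 49 and 94 counts in River 1 and 31, 40 and 25 counts in Lake 2. Here the CPM of pool 7 (9.65) lay just above that of pool 5 (9.64), so the sites barely failed to overlap and the ratio of 2.05 rested on pools 8 and 9. The other window of this kind, on contig 02340, lies in a region named COX1 and is described with its run.

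Joining windows at most 1000 bp apart gave 204 runs, of which 169 held 1 window, 32 held 2 and 3 held 3. The runs of 2 or more windows spanned 200 to 400 bp and are the part in which nearby windows met the rule as well. Touching windows share reads, so a run of 2 is not a pair of independent observations. Blocks, which are stretches between gaps of at least 9 windows without a read, stood for contigs, and the 204 runs lay in 204 different blocks. A block thus held at most 1 run. Runs of 2 or more windows made up 17.2% of the 204 runs, against 26.4% of the 1189 runs higher in Lake 2.

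Apart from the COX1 run described below, the run with the most reads was on contig 50569. At 72325801 to 72326100 it had 36.8, 38.3 and 48.4 CPM in River 1 and 16.2, 21.0 and 10.4 CPM in Lake 2, summed over its 3 windows, a ratio of 2.60. The run on contig 17893, at 29296901 to 29297100, had 17.3, 31.6 and 24.6 CPM in River 1 and 8.61, 13.2 and 12.0 CPM in Lake 2, a ratio of 2.17. The pools of River 1 differed more from each other on contig 17893 than on contig 50569. The run on contig 05196, at 9823201 to 9823400, had the highest ratio of the 10 largest runs, 3.06, with 12.4, 23.2 and 13.6 CPM in River 1 and 6.01, 6.99 and 3.13 CPM in Lake 2. Pool 8 stood above the other River 1 pools on contigs 17893 and 05196.

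Of the other large runs, 2 had Lake 2 pools close together. The run on contig 24216, at 37600001 to 37600200, had 10.7, 19.3 and 17.7 CPM in River 1 and 6.21, 6.74 and 6.77 CPM in Lake 2. The run on contig 10024, at 17654301 to 17654500, had 12.4, 16.9 and 14.1 CPM in River 1 and 6.21, 6.99 and 5.47 CPM in Lake 2. On contig 46341, at 66871801 to 66872000, the values were 11.2, 17.2 and 19.8 CPM in River 1 and 6.41, 6.99 and 4.95 CPM in Lake 2. The Lake 2 pools were more uneven in the last 2 runs. On contig 39779, at 57829801 to 57830000, River 1 had 11.9, 15.1 and 14.8 CPM and Lake 2 had 10.2, 5.54 and 2.87 CPM. On contig 12120, at 20841501 to 20841700, River 1 had 10.4, 16.0 and 12.7 CPM and Lake 2 had 8.01, 6.99 and 2.87 CPM, so that pool 6 again lowered the Lake 2 mean.

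Of the 204 runs, 7 lie in a region to which the study's annotation gives a gene name. These names come from sequence matches to other organisms, and the regions were listed by the study on the same pools, so their directions are not independent evidence. The annotation names 175 such regions, of which 168 held a window within the count limits, 7 held at least 1 of the 242 windows and 114 held a window that met the same rule with the sites exchanged. By category, the 242 windows touched 3 of 25 regions for metabolism, 1 of 21 for translation, 1 of 14 for transcription, 1 of 7 for development and 2 of 63 of unknown function. None of the 24 signaling, 14 cytoskeleton, 9 epigenetic, 6 protease, 6 transport or 5 binding protein regions held one. Over the whole transcriptome, 204 of the 20697 blocks with a window within the count limits held one, so a count of 0 in so few regions says nothing about a category.

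The 3 metabolism regions carry mitochondrial gene names, and they are 3 of the 7 regions named COX1. The other 4 held none of the 242 windows, and on contig 18911 no window met the count limits. Summed over all windows of a region, the CPM was 60.2 in River 1 against 38.5 in Lake 2 on contig 00012. It was 63.9 against 36.4 on contig 00285, 31.0 against 16.1 on contig 01741 and 2.64 against 0.441 on contig 18911. For the 3 regions with chosen windows, the same sums were 66.4 against 29.5 on contig 02340 and 25.9 against 12.9 on contig 01069. On contig 07825 they were 72.4 against 42.2. The values of the 3 runs below cover only the windows chosen by the rule. COX1 is a core subunit of cytochrome c oxidase, the last enzyme of the respiratory chain, ATP8 is a small subunit of ATP synthase and ND3 is a subunit of the NADH dehydrogenase complex. At the COX1 run on contig 02340, at 4760601 to 4760900, River 1 had 29.2, 61.8 and 54.8 CPM and Lake 2 had 19.8, 24.8 and 17.7 CPM, a ratio of 2.34. At the COX1 and ATP8 run on contig 01069, at 2285401 to 2285800, River 1 had 10.4, 18.4 and 17.3 CPM and Lake 2 had 7.81, 7.95 and 5.47 CPM, a ratio of 2.17. At the COX1 and ND3 window on contig 07825, at 14169801, River 1 had 7.11, 13.6 and 14.6 CPM and Lake 2 had 6.21, 6.99 and 2.34 CPM, a ratio of 2.27. In all 3, pool 7 was nearer to the highest Lake 2 pool than to pools 8 and 9.

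The region on contig 42522 carries the names IscW_ISCW023383 and sox2, the second of which is a transcription factor that maintains stem cells and neural progenitors in vertebrates. Its 2 windows at 61686901 to 61687100 had 4.83, 13.3 and 9.78 CPM in River 1 and 3.80, 2.41 and 1.56 CPM in Lake 2, a ratio of 3.58, the highest among the named runs. Pool 7 was again nearer to the highest Lake 2 pool than to the other River 1 pools. Summed over all windows of the region, the CPM was 13.2 in River 1 against 3.56 in Lake 2.

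The other 3 named windows had fewer reads. The window on contig 00459 at 1027001 lies in a region named trnaw-cca, a transfer RNA gene for tryptophan, the adaptor that brings this amino acid to the ribosome. It had 5.84, 6.03 and 7.05 CPM in River 1 and 2.40, 4.34 and 2.08 CPM in Lake 2, a ratio of 2.14. The window on contig 02513 at 5076101, named VOLCADRAFT_115993 with unknown function, had 4.06, 5.12 and 3.87 CPM in River 1 and 1.40, 2.89 and 1.30 CPM in Lake 2, a ratio of 2.33. The pools of River 1 were even in both windows, and pool 5 was the highest of Lake 2. The window on contig 40252 at 58506401, named si:dkeyp-61b2.1 with unknown function, had 3.56, 2.41 and 6.14 CPM in River 1 and 1.40, 1.45 and 0.782 CPM in Lake 2, a ratio of 3.34, and its River 1 pools were the least even of the 3. These ratios are those of the chosen window, not of the named region. Summed over all windows of the region, the CPM was 44.8 in River 1 against 34.6 in Lake 2 on contig 40252. It was 22.1 against 15.3 on contig 00459 and 11.8 against 6.08 on contig 02513.

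**Figure D2:**
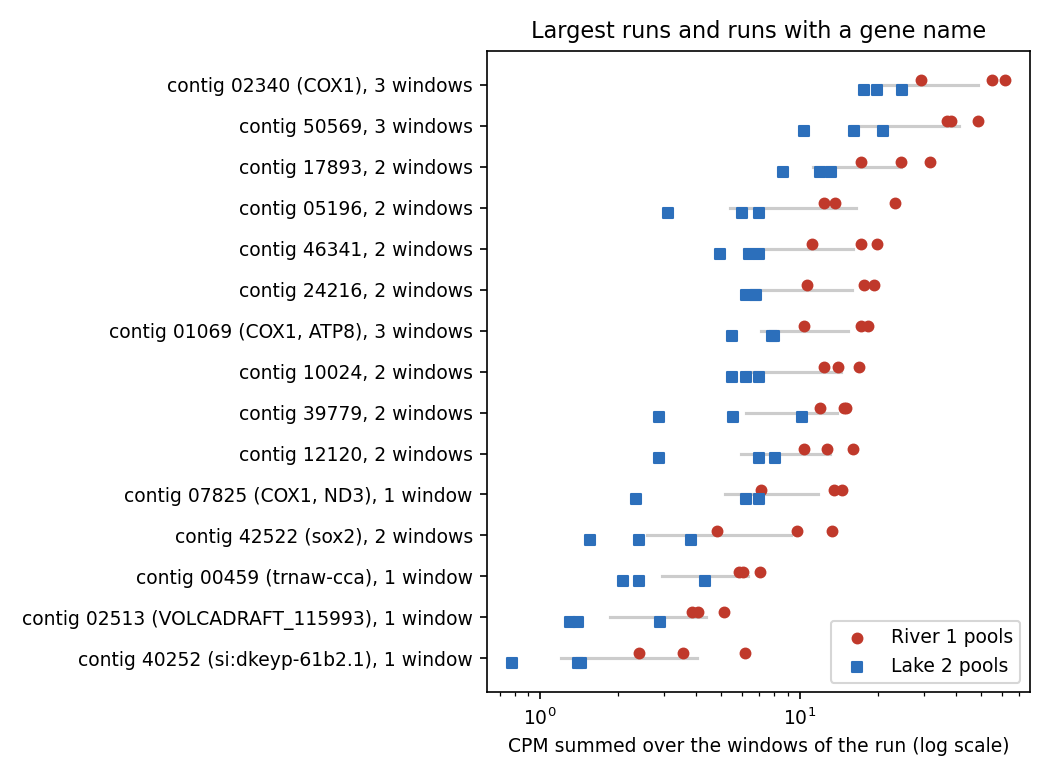
CPM summed over the windows of the 10 largest runs and the 7 runs with a gene name, which overlap in 2 runs, on a log scale. Each red circle is a River 1 pool, each blue square a Lake 2 pool, and the grey line joins the site means. The sites do not overlap in any run, as the rule required, and in the runs named COX1 and sox2 the lowest River 1 pool lies close to the highest Lake 2 pool.

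The ratio was lower in the windows around the chosen ones. The leading window had to reach a ratio of 2 and its neighbours did not, so a fall with distance follows in part from the rule. Distances are along the joined transcriptome and are not distances in the genome. In the window with the most reads of each run, the median ratio of River 1 to Lake 2 was 2.19. In the windows that touched it, the median ratio was 1.85 on the left (166 windows) and 1.78 on the right (179 windows), among windows with at least 10 counts. At 200 bp it was 1.34 and 1.29, and at 300 bp 1.17 and 1.08. At 400 bp it was 1.11 on the left and 0.993 on the right. Since touching windows share reads, the nearest of these values are not independent of the rule.

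At a distance of 200 bp, 73 of 101 windows on the left and 87 of 110 on the right were higher in River 1. At 400 bp, 19 of 31 and 16 of 37 were. The mean CPM of River 1 was 5.29 in the leading window and 3.03 and 3.64 at 200 bp to its left and right. The mean CPM of Lake 2 was 2.29 in the leading window and 2.41 and 2.92 at the same distances. The leading window was chosen on its count and on this difference, so the peak in River 1 follows from the rule. With the sites exchanged, River 1 had 2.64 CPM and Lake 2 had 5.93 CPM in the leading window, and 3.16 CPM and 4.40 CPM at 200 bp to its left.

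**Figure D3:**
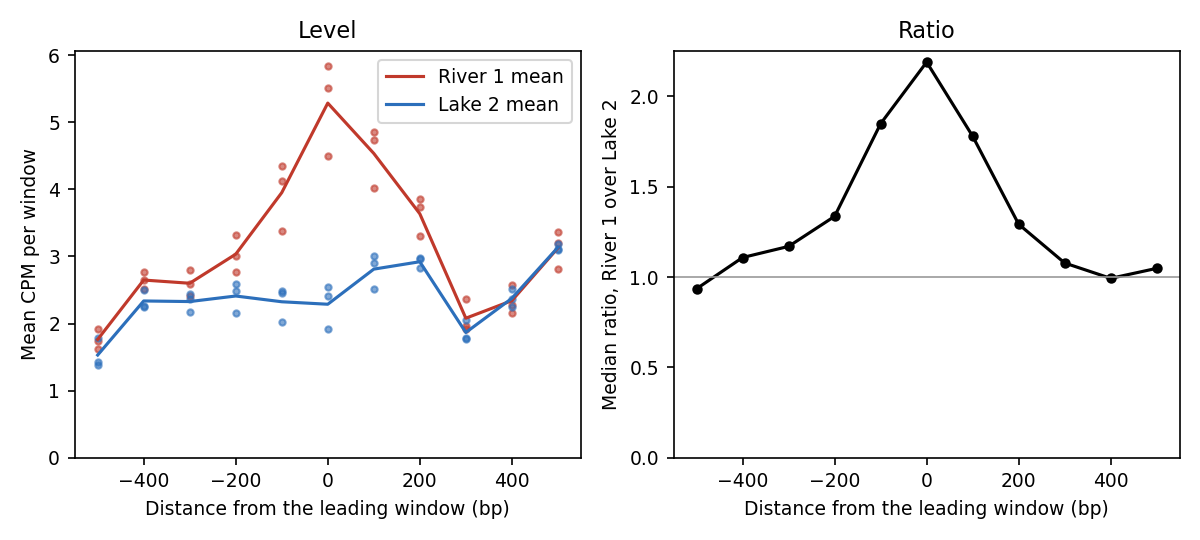
Signal around the leading window of the 204 runs, against the distance from it in bp and only within the same block. On the left, lines are the mean CPM per window of each site, River 1 in red and Lake 2 in blue, and points are the 3 pools of each site; on the right is the median ratio of windows with at least 10 counts, which is 2.19 at the leading window and 1.17 and 1.08 at 300 bp to its left and right.

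The rest of each block, without the chosen windows and those touching them, was read as a separate measure. It held at least 60 counts in 122 of the 204 blocks. Its ratio of River 1 to Lake 2 had a median of 1.14 (range 0.514 to 2.14), and it was above 1 in 87 of the 122 blocks. Over all 20697 blocks with a window within the count limits the median was 0.985, and 47.5% were above 1. These blocks were taken whole, with no window removed and no minimum of 60 counts for a rest. The measures thus differ, and no conclusion is drawn from setting them side by side. In 23 of the 122, each River 1 pool lay above each Lake 2 pool, and in 6 the reverse was true. The same shares over all blocks are not given here, so nothing is read from these counts. For single windows within the count limits the shares were 8.55% and 16.7%. With River 1 higher, the share reached 15.7% of windows at mean counts of 60 to 150. Only 2 blocks had a rest with a ratio of at least 2. The rest of the block still shares its block, and possibly some reads of longer fragments, with the chosen window.

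The chosen windows were more often local peaks of read count than other windows. The summed count of 116 of the 242 windows, or 47.9%, exceeded that of both neighbours, against 35.7% of all windows within the count limits and 32.2% of the windows higher in Lake 2. At mean counts of 10 to 15 these shares were 46.9%, 32.0% and 25.1%. The chosen windows were selected on this summed count and on the difference between the sites, so a peak can follow in part from the rule. How far it did was not tested, and these shares are a description only. Taken once per window, the length of its block had a median of 6 windows for the 242, against 7 for all windows within the count limits. Of the 242 windows, 14.9% lay at the edge of a block, against 19.3% of all windows within the count limits.

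The share of windows that met the rule changed with read count. At mean counts of 10 to 15 it was 0.973% (175 of 17990 windows), at 15 to 30 it was 0.251% (56 of 22351), at 30 to 60 it was 0.0769% (10 of 12998), and at 60 to 150 it was 0.00778% (1 of 12856). In contrast, the share in which each River 1 pool lay above each Lake 2 pool, at any ratio, increased with count and was 5.23%, 5.71%, 11.0% and 15.7% at these levels. The share in which each Lake 2 pool lay above each River 1 pool was 14.8%, 20.0%, 18.7% and 11.3% at the same levels, so it was lowest where counts were highest. The median log2 ratio of all windows shifted with count as well, from -0.18 at the lowest level to 0.07 at the highest. Read count thus moved with membership, and its part in the result was not tested.

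**Figure D4:**
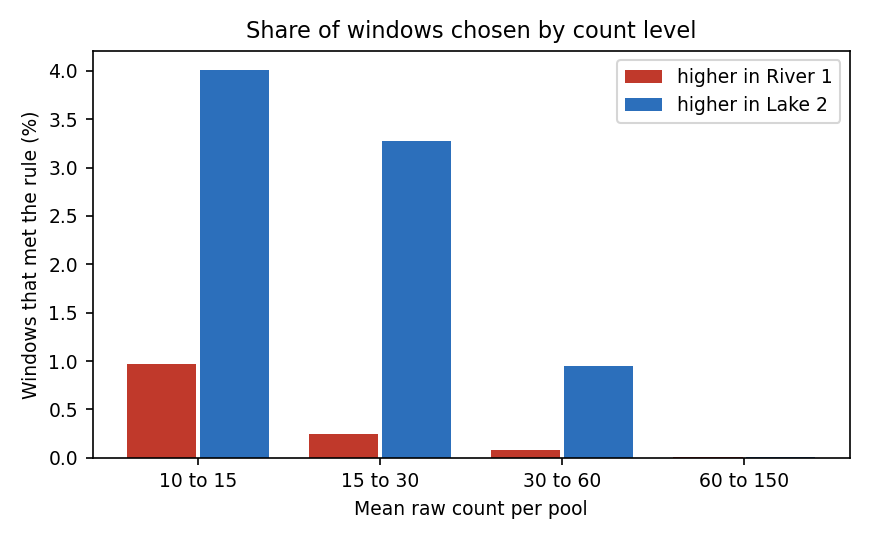
Share of windows within the count limits that met the rule, in percent, by mean raw count per pool, with windows higher in River 1 in red and, with the sites exchanged, windows higher in Lake 2 in blue. For River 1 the share is 0.973% at counts of 10 to 15 and 0.00778% at 60 to 150; at each level but the last the Lake 2 bar is higher.

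The spread among pools, relative to their mean, was larger in the site with the lower signal. The rule set which site was lower, and relative counting spread is larger at lower counts. The contrast between the sites can therefore follow from the rule and is a description only. The coefficient of variation of the CPM had a median of 23.7% among River 1 pools and 29.9% among Lake 2 pools. At mean counts of 10 to 15 it was 22.8% in River 1 and 30.4% in Lake 2 for the chosen windows, against 28.8% in River 1 and 23.4% in Lake 2 for all windows at that level. In the windows chosen with the sites exchanged it was 37.8% in River 1 and 20.5% in Lake 2. The variance over the mean of the counts at that level had a median of 0.865 in River 1 and 0.693 in Lake 2 for the chosen windows. For all windows at that level it was 0.869 in River 1 and 0.714 in Lake 2. Over all 242 windows it was 1.04 in River 1 and 0.834 in Lake 2, against 0.881 and 0.686 for all windows within the count limits.

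How far the difference held in pools that had no part in the choice was examined by leaving out 1 pool, choosing windows from the other 5 with a minimum of 50 counts, and then reading the pool that was left out. Pool 9 was closer to its own site, by the mean of the other pools, than to Lake 2 in 129 of 177 windows (72.9%), pool 8 in 169 of 337 (50.1%) and pool 7 in 165 of 498 (33.1%). Among the Lake 2 pools, pool 6 was closer to its own site in 244 of 266 windows (91.7%), pool 5 in 329 of 532 (61.8%) and pool 4 in 311 of 512 (60.7%). Pool 7 was therefore nearer to Lake 2 in most windows chosen without it. It exceeded every Lake 2 pool in 326 of the 498 windows (65.5%). Pool 8 did so in 232 of 337 (68.8%) and pool 9 in 157 of 177 (88.7%). The shares in this paragraph are not set beside those of all windows within the count limits, so they are a description only.

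Leaving out 1 pool of each site gave 9 sets of between 182 and 910 windows, chosen from 4 pools with a minimum of 40 counts. In the pools that chose them the median ratio was 2.16 to 2.24. In the pools left out, the median ratio of the same windows, with 0.1 CPM added to each value, was between 1.09 (pool 8 over pool 4) and 2.06 (pool 9 over pool 6). Over all windows within the count limits it was 0.829 to 0.991. The River 1 pool left out was higher in 57.3% to 92.9% of the chosen windows, against 35.9% to 48.7% of all windows. The direction was thus kept in the median of all 9 sets, while the size was smaller than in the pools that chose the windows and was nearest to it when pools 9 and 6 were the ones left out. The 9 sets share pools and are not independent of each other.

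**Figure D5:**
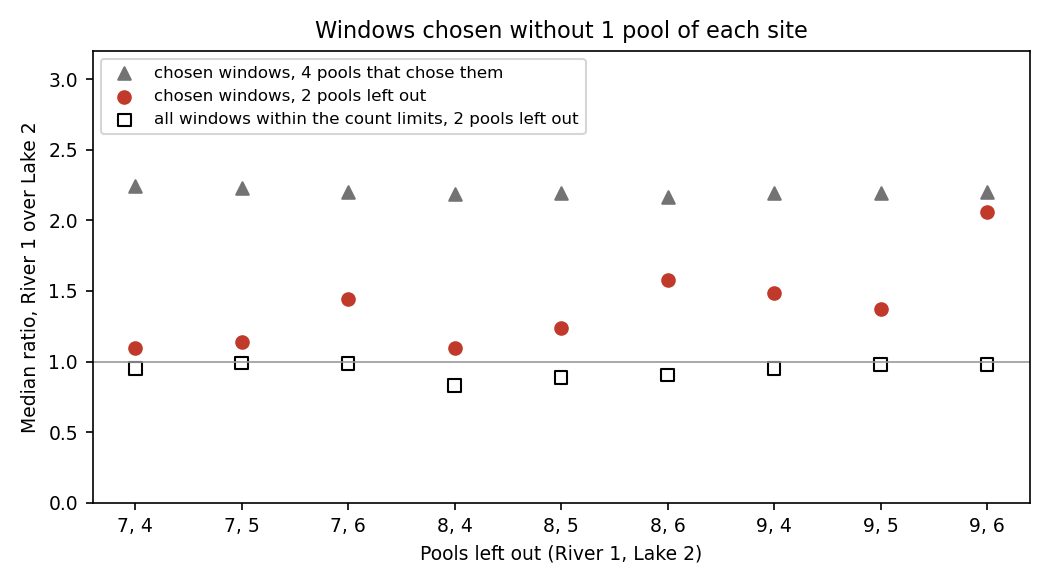
Median ratio of River 1 to Lake 2 for windows chosen without 1 pool of each site, by the pair of pools left out (River 1 pool, then Lake 2 pool). Grey triangles are the 4 pools that chose the windows (2.16 to 2.24), red circles the 2 pools left out (1.09 to 2.06), and open squares all windows within the count limits in the pools left out (0.829 to 0.991).

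Among the 242 windows themselves, the ratio of 2 often needed a certain pool. The means were recomputed with 1 pool taken out. When this was pool 7, 8 or 9 of River 1, the ratio stayed at least 2 in 226, 191 and 162 windows, in that order of pools. For pools 4, 5 and 6 of Lake 2 the numbers were 201, 209 and 156. In 87 windows it stayed at least 2 whichever pool was taken out, and these had ratios of 2.22 to 8.38 with a median of 2.54. This reading was chosen after the values had been seen.

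The 242 windows were also looked up in a test over all windows. The quasi-likelihood test of edgeR, on the 151608 windows that had 10 or more counts over all pools, called 463 windows higher in River 1 at a Benjamini-Hochberg adjusted p-value under 0.05, which is 0.305% of those tested. Of the 242 windows, 107 were among them. Both the rule and the test used the same contrast, so nothing is read from this count. The fitted log2 fold changes of the 242, River 1 over Lake 2, had a median of 1.16 (range 0.97 to 3.11) and their standard errors a median of 0.345, beside a median of -0.01 over all tested windows. The Wald test of DESeq2 called 9 windows higher in River 1, 0.0097% of 92821 tested, and 7 of them were among the 242. These p-values measure only the spread among these pools, which may be partly technical.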

How the data were processed

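MeDIP-seq counts of foot tissue DNA from 3 River 1 and 3 Lake 2 pools were used. The authors sheared the DNA, immunoprecipitated methylated fragments and sequenced them, and their processing notes name FastQC, Trimmomatic, Bowtie2, SAMtools and edgeR, with versions not given in the sources used here. Bowtie2 placed the reads on the joined transcriptome and MEDIPS counted them in windows of 100 bp. The deposited counts are raw reads per window with no normalization, and no window exceeds 300 in any pool. The authors' fold changes and p-values and 6 further per-pool columns, of RPKM, were not used. Pools were grouped by the site in the sample labels.

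Counts were divided by the column sum to give CPM, and the rule stated in the report was applied. The windows, the rule and the regions named were chosen with earlier results of these data known. Named were the 10 largest runs, the 8 windows with the widest gap and the 5 with the highest mean count (at most 1 per run), the runs with a gene name, and the 3 windows on each side of the ratio of 2. The tests were those of edgeR 4.0.16 (TMM, all 6 pools, no covariates) and DESeq2 1.42.0 in R 4.3.3, and each script was tested on simulated data. Alternatives were other scalings, count limits, ratios and joining distances, other tests and each pool left out. A depth of 3317802 to 4994212 counts per pool gave a median of 12.75 counts per chosen window and pool.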

Additional observations from a re-analysis of the deposited data

How the results depend on the processing

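A median window holds 76.5 reads over 6 pools, and the number of windows moved with the lower count limit, the ratio limit, the scaling and the pools used. With a summed count of at least 30 there were 1067 windows in 888 runs, 153 of them with 2 or more windows, against 2967 windows higher in Lake 2. With at least 120 there were 34 windows in 30 runs, 3 of them with 2 or more, against 437. With a ratio of at least 1.5 there were 1294 windows in 1004 runs, 236 of them with 2 or more, against 6461, and with a ratio of at least 3 there were 24 windows in 19 runs, 5 of them with 2 or more, against 69. Scaling by TMM gave 274 windows, 240 of them among the 242, against 1470 higher in Lake 2. Scaling by DESeq2 size factors gave 349, including all 242, against 1185, where the scaling used in the report gave 242 against 1579. An upper limit of 100 on the mean count, no upper limit, and other joining distances changed no count by more than 1 run.

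Leaving out 1 pool gave between 177 windows (without pool 9) and 532 (without pool 5), with 512 without pool 4 and 498 without pool 7, in 151 to 445 runs, 24 to 77 of them with 2 or more windows, against 995 to 4208 windows higher in Lake 2. The windows shared with the 242 numbered 121 without pool 9, 156 without pool 6, 175 without pool 8, and 200 to 209 without pool 4, 5 or 7. The median ratio of 2.20 to 2.29 in these sets is held above 2 by the rule. The count minimum was scaled to the number of pools.

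The edgeR test called 107 of the 242 and 463 windows in all as higher in River 1. It called 69 and 308 with library sizes in place of TMM, 149 and 666 with DESeq2 size factors, and 124 and 637 with no filter on low counts. The test of DESeq2 called 7 and 9. With 1 pool left out edgeR called 34 to 171 of the 242 and 61 to 1474 windows in all. The highest of these counts were without pool 7, and the lowest were 34 of 61 without pool 6 and 34 of 99 without pool 9. The cause was not tested. No paired analysis was possible because the labels give each pool a number of its own, none shared between the sites, and the River 1 columns cannot be tied to single samples.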

Other observations

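Windows called higher in River 1 by edgeR but outside the 242 numbered 356. Of these, 206 lay within the count limits, with a median ratio of 1.69 (range 1.42 to 2.24). In 180 of the 206 each River 1 pool was above each Lake 2 pool, beside 8.55% of all windows within the count limits. The test that called them used the same contrast in the same pools, so nothing is read from this count. Another 145 had a summed count under 60, and 5 had a mean count of at least 150.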
